A study of Mus musculus with 9 samples.

Results

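The kelch adaptor genes of MA-10 cells were followed across 3 treatments. The set held every gene whose array probe carried a single symbol made of Klhl, Kbtbd or Klhdc and a number, with Keap1 added, and it came to 56 of 19938 genes: 36 Klhl, 9 Kbtbd, 10 Klhdc and Keap1. The family was chosen because Kbtbd8 was strongly lower with AICAR, so Kbtbd8 is described with its values and no test, and the other 55 members were tested. One further gene fits the naming rule in RefSeq, Klhl17, and was not analysed here. MA-10 cells come from a mouse Leydig tumour and respond to cAMP with steroid production, and every sample is of this 1 line. The cells were kept for 1.5 h in medium without serum and received DMSO (3 arrays, the control), 10 µM forskolin (3 arrays), or 10 µM forskolin together with 1 mM AICAR (3 arrays). The titles of the control samples say that they had no treatment, while their treatment field says DMSO. Forskolin activates adenylyl cyclase and raises cAMP. AICAR enters cells and becomes ZMP, which mimics AMP and activates the energy sensor AMPK. AICAR without forskolin was not analysed here, so the AICAR effect was measured only in cells that also had forskolin.

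Kelch-BTB proteins tell a ubiquitin ligase what to mark. The BTB domain binds the scaffold CUL3, which carries the RING protein RBX1 and is switched on by attachment of NEDD8, and the kelch repeats fold into a propeller that holds the substrate. KEAP1 is the best known member: it keeps the transcription factor NRF2 (gene Nfe2l2) low until oxidants or electrophiles modify it. KLHDC proteins have kelch repeats but no BTB domain, and several of them serve ligases built on CUL2 instead, so the name kelch-BTB does not cover the 10 Klhdc genes of the set.

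Total RNA was read on Affymetrix whole-transcript arrays, and each value is a deposited log2 summary of a transcript's probes. A log2 difference of 1 is a doubling. Levels are compared between groups for a probe and never between probes. The array medians lay between 7.138 and 7.193, and precision is limited by how few arrays there are. Whether the replicates came from separate cultures is not stated, and the p-values then reflect the spread of these samples, which may be technical. In bulk RNA, fewer cells of a type and less RNA per cell cannot be told apart. The AICAR arrays were unlike each other: the interquartile range was 3.349 and 3.341 on AICAR replicates 2 and 3 and 3.416 to 3.482 on the other 7 arrays. All 8 measured Leydig markers had a mean log2 value of at least 6, as did all 7 Sertoli markers, all 7 peritubular and fibroblast markers, 5 of 10 germ cell markers, 3 of 7 macrophage markers and 3 of 5 endothelial markers. The Leydig markers Insl3 and Lhcgr were not analysed here. Star, the cholesterol carrier of steroid synthesis, rose 3.70-fold with forskolin and fell 4.14-fold when AICAR was added (adjusted p = 2.8e-07 and 5.2e-07). Fdx1, the ferredoxin of steroid synthesis, rose by 0.90 on the log2 scale with forskolin and differed by −0.34 when AICAR was added (adjusted p = 1.6e-05 and 0.0033), and Scarb1, the HDL receptor, differed by 0.35 and −0.35 (adjusted p = 0.0076 and 0.0024). Against control Fdx1 was the 1 Leydig marker called with AICAR (0.56, adjusted p = 0.00032). Hsd3b1 fell with AICAR against forskolin (−0.59, adjusted p = 0.044), a call lost without 7 of the 9 single arrays (up to 0.12). The mean over the 8 Leydig markers was 10.41 to 10.455 in control, 10.852 to 10.915 with forskolin and 10.379 to 10.483 with AICAR. Among markers of other cell types, Sox9 of Sertoli cells fell with AICAR against forskolin and control (−0.46 and −0.56, adjusted p = 0.0013 and 0.00043). The median of the 7 Sertoli markers was the other way, at 0.13 and 0.18. Cd68 of macrophages fell as well (−0.39 and −0.28, adjusted p = 0.0068 and 0.026), where the median of the 7 macrophage markers was 0.00 and 0.07. Its call against control was lost without control replicate 2 or 3 and with quantile normalization, and lay at the threshold without control replicate 1. With forskolin the smallest p in these lists was that of Sox9 (−0.10, adjusted p = 0.77) and of Ptprc (0.11, adjusted p = 0.79), with 0 calls by limma. The mean over the 7 Sertoli markers ran from 7.159 to 7.263 in control, 7.181 to 7.244 with forskolin and 7.195 to 7.363 with AICAR, and that over the 7 macrophage markers from 6.089 to 6.102, 6.129 to 6.173 and 6.024 to 6.191. The mean over the 7 peritubular and fibroblast markers ran from 7.044 to 7.16, 7.097 to 7.17 and 7.194 to 7.39, so every AICAR array was above the other 6. That over the germ cell markers was 5.692 to 5.729, 5.696 to 5.751 and 5.744 to 5.811, and that over the endothelial markers 7.231 to 7.309, 7.298 to 7.304 and 7.302 to 7.427. Dmrt1 of Sertoli cells rose against control (0.33, adjusted p = 0.018, but 0.061 without control replicate 3). With limma, 4801 of all 19938 genes had an unadjusted p under 0.05 for AICAR against forskolin, and 6199 for AICAR against control. Germ cell, endothelial and peritubular markers had 0 calls with limma in any comparison (at an unadjusted p under 0.05 at most 3, 0 and 5 of them). Their smallest p with forskolin, with AICAR against forskolin and with AICAR against control was that of Prm2 (0.15, adjusted p = 0.67), Ccin (0.22, 0.16) and Prm2 (0.20, 0.083) for germ cells. For endothelial cells it was that of Tek (0.10, adjusted p = 0.75), Kdr (0.13, 0.27) and Kdr (0.14, 0.20), and for peritubular cells that of Myh11 (0.12, adjusted p = 0.79), Col3a1 (0.20, 0.12) and Col3a1 (0.25, 0.051). The part of these markers in the results was not tested.

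Kbtbd8, the gene that led to the choice of the family, encodes an adaptor through which CUL3 modifies the ribosome biogenesis factors TCOF1 and NOLC1 in the neural crest. Its log2 values were 7.10, 6.88 and 6.88 in control, 7.17, 7.07 and 7.47 with forskolin, and 6.12, 6.04 and 6.12 with AICAR. Every AICAR array was below every other array, while control and forskolin overlapped. The level with AICAR was 2.21-fold below forskolin alone (log2 difference −1.14, SE 0.10) and 1.81-fold below control (−0.86, SE 0.10). Forskolin without AICAR stood 0.28 above control (SE 0.10). Leaving out any 1 array gave −1.23 to −1.03 against forskolin, −0.89 to −0.78 against control and 0.17 to 0.37 for forskolin against control. Because Kbtbd8 was chosen for its fall, these ranges describe its values and lend the fall no support. Neither substrate gene passed a test. Tcof1 differed by −0.07 and Nolc1 by −0.01 between AICAR and forskolin alone (SE 0.04 and 0.03, adjusted p = 0.36 and 0.82).

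Kbtbd6 and Kbtbd7 fell with AICAR as well. Their proteins work as a pair that recruits TIAM1, an activator of the small GTPase RAC1, to CUL3, and binding to GABARAP on membranes helps them do so. Kbtbd6 read 7.71, 7.79 and 7.85 in control, 7.66, 7.68 and 7.86 with forskolin, and 6.98, 7.05 and 7.02 with AICAR. It fell 1.65-fold against forskolin alone (log2 difference −0.72, SE 0.06, adjusted p = 0.00031). Kbtbd7 read 8.51, 8.58 and 8.62 in control, 8.48, 8.56 and 8.58 with forskolin, and 7.94, 7.97 and 7.74 with AICAR. Its fall was 1.58-fold (−0.66, SE 0.06, adjusted p = 0.00059). In neither gene did an AICAR array reach the lowest of the other 6 arrays. Forskolin alone gave no call for them, at −0.05 and −0.03 (adjusted p = 0.94 and 0.97). Both falls were called in all 18 alternative fits of each AICAR comparison, among them the 9 fits that each left out 1 array. Tiam1 itself was 11.05, 11.05 and 11.01 in control, 10.95, 11.03 and 11.05 with forskolin, and 11.12, 11.12 and 11.20 with AICAR. Its AICAR arrays were the highest of the 9, but the difference of 0.14 from forskolin alone did not pass the test (SE 0.04, adjusted p = 0.10).

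**Figure D1:**
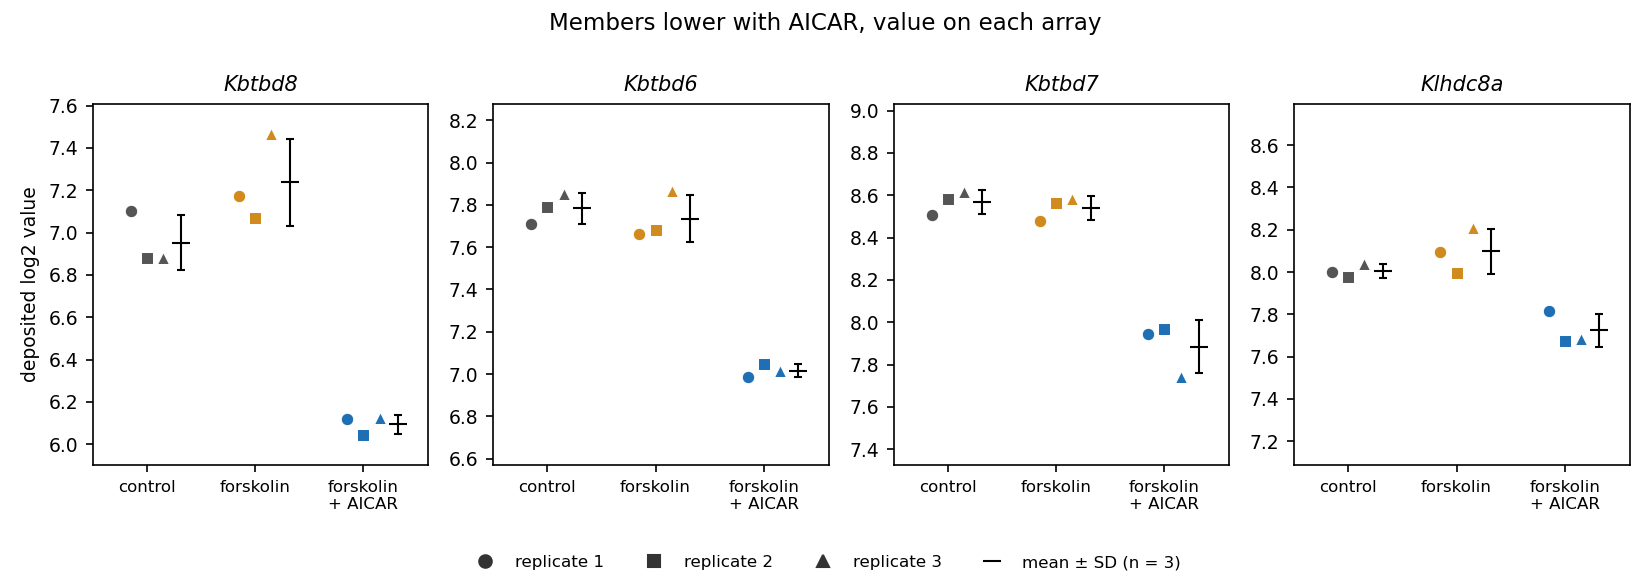
Deposited log2 values (vertical axes, of the same length in all panels and centred on each gene) of Kbtbd8, Kbtbd6, Kbtbd7 and Klhdc8a on each of the 9 arrays, by treatment. Points are arrays with a shape for each replicate number, and bars are the mean and SD of 3 arrays. In all 4 genes every AICAR array lies below every control and forskolin array, and Kbtbd8 was chosen for this pattern.

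Klhdc8a was the other member to fall with AICAR against forskolin alone. It belongs to the kelch proteins without a BTB domain. Its values were 8.001, 7.98 and 8.04 in control, 8.09, 7.99 and 8.21 with forskolin, and 7.82, 7.68 and 7.68 with AICAR. AICAR replicate 1 stood nearest to the other groups without overlapping them. The fall was 1.30-fold against forskolin (−0.37, SE 0.06, adjusted p = 0.007) and was called in all 18 alternative fits. Against control it was 1.21-fold (−0.28, SE 0.06, adjusted p = 0.023), and that call was lost without any 1 of the control arrays or without AICAR replicate 2 or 3 (adjusted p up to 0.09).

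Kbtbd6 and Kbtbd7 are also neighbours. In the RefSeq order of protein-coding genes on mouse chromosome 14 they follow each other between Mtrf1 and Wbp4, whereas Kbtbd8 lies on chromosome 6 and Klhdc8a on chromosome 1. The flanking genes, 2 on each side, were looked up after the values were seen. Mtrf1, a mitochondrial translation release factor, read 7.52, 7.31 and 7.15 on the AICAR arrays, all below the other 6 (lowest 7.54), but passed neither test (−0.26 against forskolin, SE 0.09, adjusted p = 0.14, and −0.30 against control, adjusted p = 0.074). Naa16, a subunit of an N-terminal acetyltransferase and next beyond Mtrf1, also had its AICAR arrays below all others and passed neither test (−0.36, SE 0.10, adjusted p = 0.066, and −0.34, adjusted p = 0.061). Of all genes, 12.2% had every AICAR array below every forskolin array, and 14.3% had every AICAR array below every control array. On the other side Wbp4, a splicing factor, differed by −0.05 and −0.08 (adjusted p = 0.61 and 0.39). Elf1, an ETS transcription factor and next beyond Wbp4, was at −0.15 against forskolin (adjusted p = 0.13) and fell against control (−0.28, SE 0.05, adjusted p = 0.014), a call lost without control replicate 2 or 3 (up to 0.062) and with quantile normalization. Without AICAR replicate 1, and with array weights, Mtrf1 and Naa16 were called in both AICAR comparisons. Those 2 settings called 16.7% and 28.7% of all genes against forskolin, and 23.8% and 33.2% against control. Of 18 alternative fits, 2 called Mtrf1 in each comparison, and 3 against forskolin and 4 against control called Naa16.

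The promoters of Kbtbd8 and Kbtbd7 are shown because these genes lie on different chromosomes, were both lower with AICAR and carry a short sequence that differs between them at 1 base. The 250 bases before the RefSeq start are given in the mouse build GRCm38.p6, plus strand, 5′ to 3′, and capitals mark matches to CTACANTTCCC on either strand. No window was held for Kbtbd6 or for 8 other members (Kbtbd11, Klhdc7b, Klhl8, Klhl14, Klhl24, Klhl30, Klhl38 and Klhl42).
Kbtbd8 promoter (chr6:95117630-95117879): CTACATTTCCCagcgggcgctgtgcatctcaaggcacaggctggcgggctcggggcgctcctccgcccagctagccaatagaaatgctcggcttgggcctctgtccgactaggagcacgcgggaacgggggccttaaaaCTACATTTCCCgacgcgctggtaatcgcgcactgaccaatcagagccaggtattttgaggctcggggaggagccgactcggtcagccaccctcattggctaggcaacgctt
Kbtbd7 promoter (chr14:79426261-79426510): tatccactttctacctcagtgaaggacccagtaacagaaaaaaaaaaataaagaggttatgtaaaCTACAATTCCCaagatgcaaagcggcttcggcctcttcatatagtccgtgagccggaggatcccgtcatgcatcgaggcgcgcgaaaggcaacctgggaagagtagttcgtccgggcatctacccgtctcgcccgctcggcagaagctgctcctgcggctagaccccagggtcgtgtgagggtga

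CTACANTTCCC is part of the sequence that the zinc finger factor ZNF143 is known to recognise, and it was picked after these promoters had been read. It was read off as the longest sequence present more than once in the Kbtbd8 window (11 bases), with N at the 1 base where Kbtbd7 differs. It begins 250 and 111 bases before the start in Kbtbd8 and 185 bases before it in Kbtbd7. Since it was read from these promoters, that both hold it is so by construction, and no other of the 47 members with a window did. Each share of members is set beside that of the 15614 tested genes with a window and that of 645 among them that fell with AICAR against forskolin. For CTACANTTCCC the tested and the fallen genes gave 1.56% and 4.34% (all 27025 genes with windows of that length, 1.05%). Kbtbd7 and Kbtbd8 are counted among these genes, Kbtbd8 although it is given no test elsewhere. So 2 of the 28 matches in the fallen genes are there by construction. The cAMP response element TGACGTCA was in 1 member (Klhl12; 2.13%), in 2.33% of the tested and in 4.19% of the fallen genes. Its shorter core TGACG, which the full element contains, was in 15 members (31.9%, against 24.1% and 31.3%), Kbtbd7 among them and Kbtbd8 not. The antioxidant response element TGACNNNGC, to which NRF2 binds, was in 7 members (14.9%, against 12.5% and 14.4%), and the AP-1 site TGANTCA in 3 (6.38%, against 7.12% and 5.58%). Both strands were searched. These are matches of letters, not measured binding.

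Over the whole family, AICAR against forskolin gave 5 called members of 55 (9.09%) at an adjusted p under 0.05: Kbtbd6, Kbtbd7 and Klhdc8a were lower, Klhl40 and Klhl1 higher. Of all genes 5.1% were called, 0.978% higher and 4.12% lower, and nothing is read from the members' share because Kbtbd8 was chosen from this comparison. The split of all called genes depended on scaling: 19.2% were higher in these values, 35.4% after median centring and 41.6% after quantile normalization, and among members quantile normalization called 4 higher and 3 lower. The median difference of the 56 members was 0.04, and that of all genes 0.02. A total of 45 members (80.4%) lay within 0.2 of no difference, as did 87.4% of all genes. In 9 members all AICAR arrays were above all forskolin arrays and in 7, Kbtbd8 included, all were below, where all genes gave 11.5% and 12.2%, or 23.6% in all. The member count was 12 without AICAR replicate 1 (6 higher and 6 lower) and 3, all lower, without control replicate 2 or 3, forskolin replicate 2 or 3, or AICAR replicate 2 or 3. Without AICAR replicate 1, 16.7% of all genes were called. AICAR replicates 1 and 3 had array weights of 0.354 and 0.318 and replicate 2 one of 2.844, where a low weight marks an array far from the fit.

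**Figure D2:**
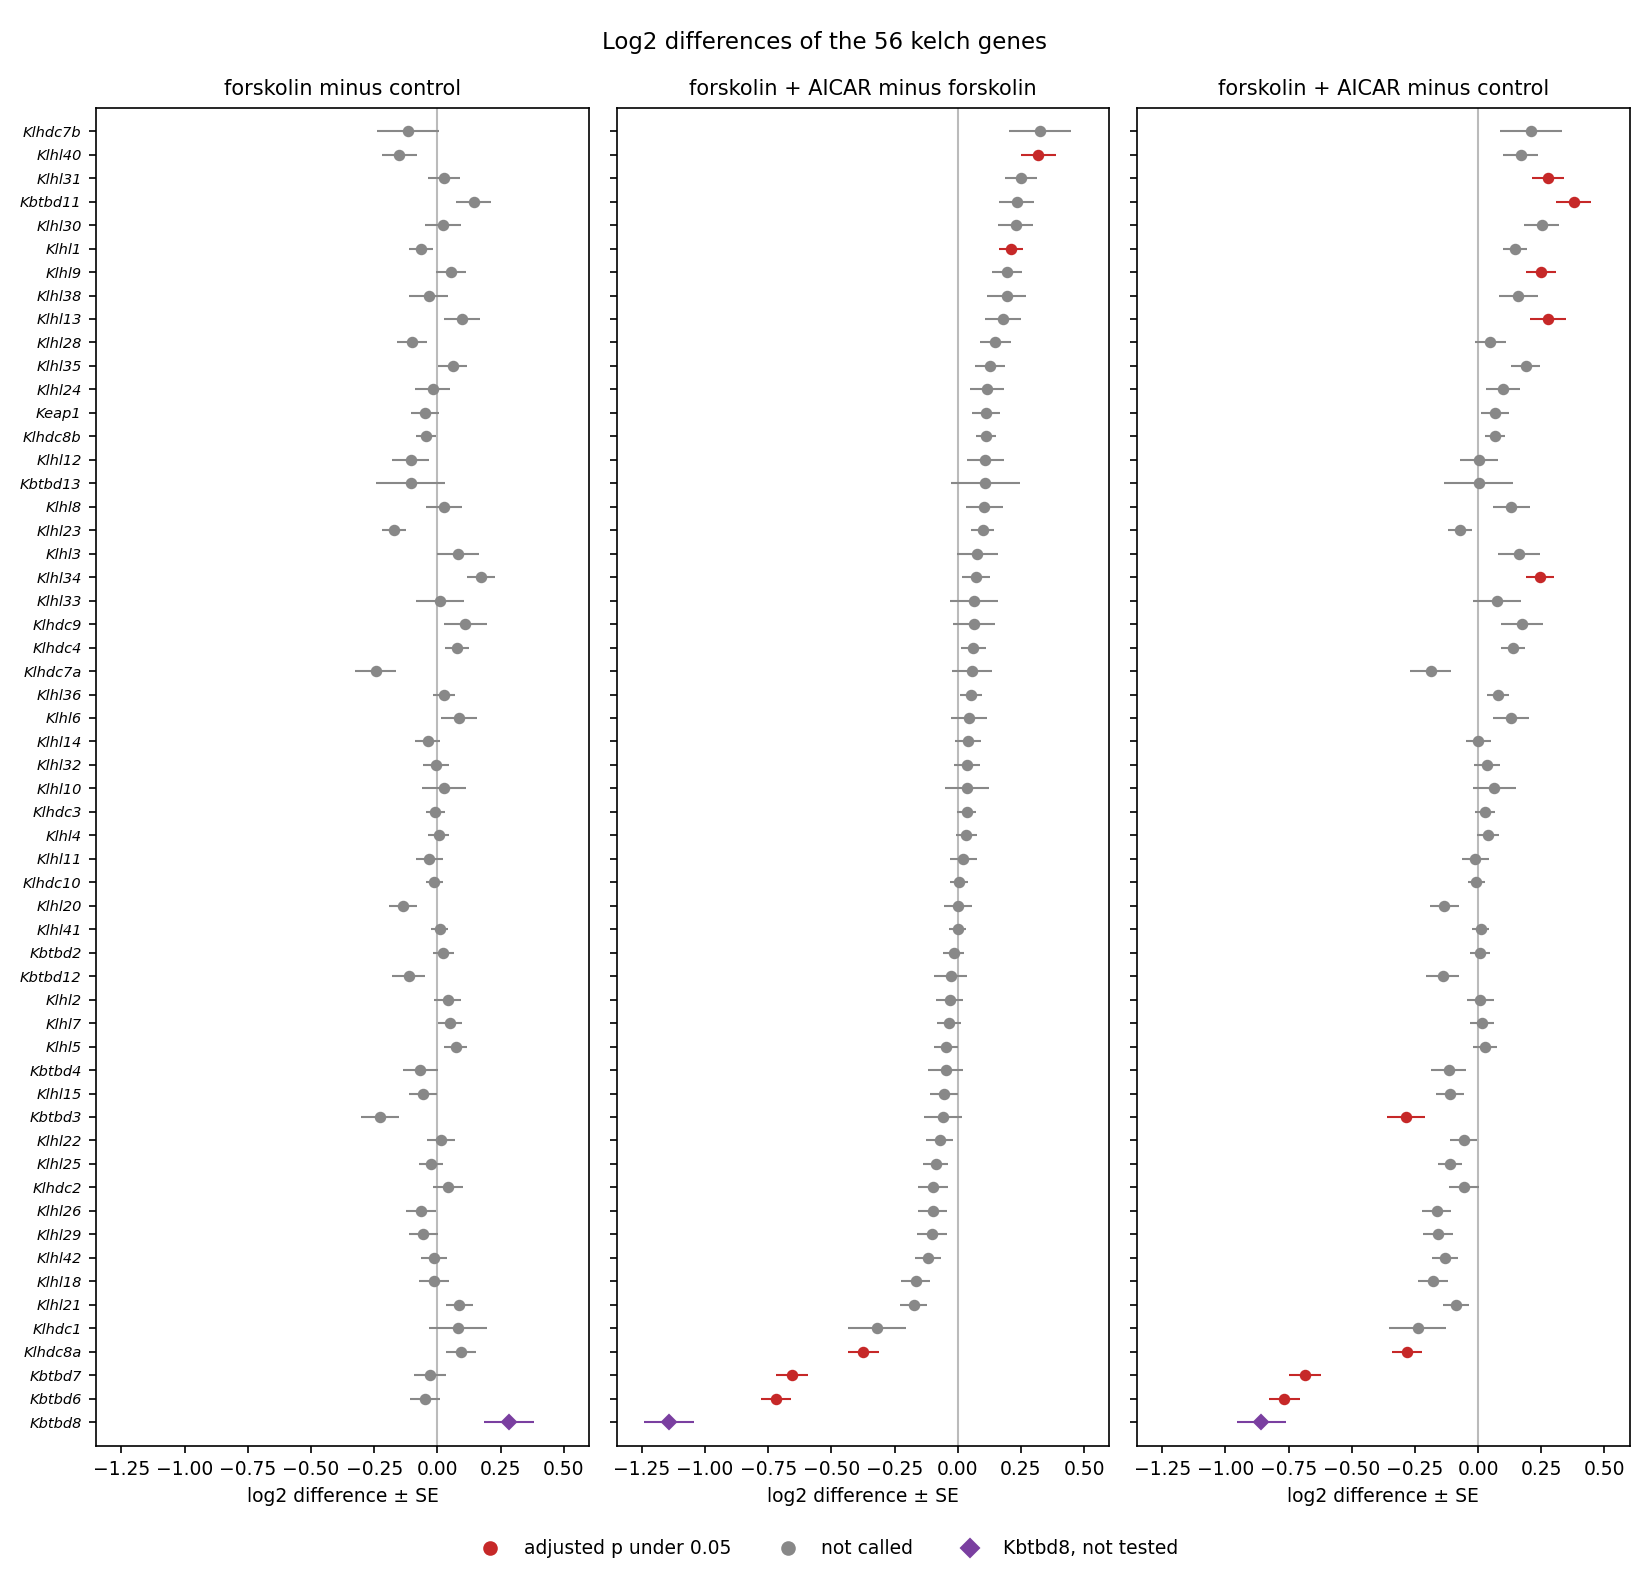
Log2 differences of the 56 kelch genes (horizontal axes; rows are genes, ordered by the middle panel) with the SE from the fit, for forskolin minus control, forskolin with AICAR minus forskolin, and forskolin with AICAR minus control. Red points passed at an adjusted p under 0.05, 0, 5 and 9 of 55 from left to right; grey points did not, and the violet diamond is Kbtbd8, which was not tested.

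Against control, cells given forskolin and AICAR had 9 called members of 55 (16.4%), 5 higher and 4 lower, beside 8.72% of all genes (3.04% higher and 5.68% lower). This comparison shares its AICAR arrays with the one above, and the Kbtbd8 pattern used to choose the family is in it too, so the shares are not set against each other. Kbtbd6 fell 1.70-fold (−0.77, SE 0.06, adjusted p = 0.0002) and Kbtbd7 1.61-fold (−0.68, SE 0.06, adjusted p = 0.00043), and Klhdc8a and Kbtbd3 were lower too. Kbtbd11, Klhl34, Klhl31, Klhl9 and Klhl13 rose. By kind of gene, the 36 Klhl genes had 4 rises and 0 falls, the 8 Kbtbd genes other than Kbtbd8 had 1 rise and 3 falls, and the 10 Klhdc genes had 1 fall. The median difference was 0.01 over the 56 members and 0.02 over all genes, with 43 members (76.8%) and 83.2% of genes within 0.2. In 11 members all AICAR arrays were above all control arrays and in 9, Kbtbd8 included, all were below, where all genes gave 15.2% and 14.3%, or 29.5% in all. The number of called members was 15 without AICAR replicate 1, 2 without AICAR replicate 2, 3 without AICAR replicate 3, and 5, 5 and 4 without control replicates 1, 2 and 3. It was 6, within 1.5 times of 9, without forskolin replicate 1 or 2. Of all genes, 23.8% were called without AICAR replicate 1, 3.42% without AICAR replicate 2 and 5.4% without AICAR replicate 3.

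The called rises were between 1.16-fold and 1.30-fold. Mean log2 values over the 9 arrays were 5.54 for Klhl13, 6.05 for Klhl1, 6.39 for Klhl40 and 6.74 for Klhl34. They were 6.94 for Klhl31, 7.20 for Kbtbd11 and 9.54 for Klhl9, beside array medians of 7.138 to 7.193. The mean of Klhl13 was under 6, where a probe may measure little. Klhl40, a muscle adaptor that stabilises thin filament proteins and is mutated in nemaline myopathy, read 6.40, 6.37 and 6.39 in control, 6.40, 6.23 and 6.08 with forskolin, and 6.54, 6.55 and 6.58 with AICAR. It rose 1.25-fold against forskolin (0.32, SE 0.07, adjusted p = 0.031), where forskolin replicate 3 was the lowest array, and was 0.17 above control (adjusted p = 0.14). Klhl1, an actin-binding protein of neurons, read 6.04, 6.05 and 5.98, then 5.95, 5.96 and 5.98, then 6.07, 6.24 and 6.20. It rose 1.16-fold against forskolin (0.21, SE 0.05, adjusted p = 0.039), and AICAR replicate 1 was close to the control arrays. The Klhl40 call was lost without any 1 control, forskolin replicate 2 or 3 or AICAR replicate 2 or 3 (adjusted p up to 0.098), and that of Klhl1 without any 1 array but AICAR replicate 1 (up to 0.13).

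Kbtbd11 had the largest called rise against control. Its values were 7.06, 7.14 and 6.88 in control, 7.20, 7.17 and 7.14 with forskolin, and 7.30, 7.49 and 7.42 with AICAR. Every AICAR array was above every other array, and control and forskolin touched at 7.14. The rise against control was 1.30-fold (0.38, SE 0.07, adjusted p = 0.012; 0.055 without AICAR replicate 2), and the gene's second probe, at a mean of 5.88, differed by 0.21 (SE 0.08). Klhl31, another muscle member, read 6.72, 6.92 and 6.88, then 6.92, 6.92 and 6.76, then 7.09, 7.12 and 7.15. It rose 1.21-fold against control (0.28, SE 0.06, adjusted p = 0.03) and its second probe, at a mean of 4.58, a level where a probe may measure little, differed by 0.06 (SE 0.07). The call was lost without control replicate 1 or 3 or AICAR replicate 2 or 3 (up to 0.094), and with the mean of both probes.

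Klhl9 and Klhl13 encode partner adaptors that take Aurora B off mitotic chromosomes. Klhl9 read 9.50, 9.49 and 9.34 in control, 9.52, 9.52 and 9.44 with forskolin, and 9.59, 9.76 and 9.72 with AICAR, and rose 1.19-fold against control (0.25, SE 0.06, adjusted p = 0.036). Klhl13 read 5.53, 5.40 and 5.31, then 5.48, 5.53 and 5.53, then 5.55, 5.78 and 5.74, and rose 1.21-fold (0.28, SE 0.07, adjusted p = 0.043). AICAR replicate 1 of Klhl13 lay just above the highest control array. Klhl34 read 6.66, 6.61 and 6.52, then 6.74, 6.83 and 6.74, then 6.75, 6.91 and 6.87. It rose 1.19-fold against control (0.25, SE 0.06, adjusted p = 0.029), and its forskolin and AICAR arrays overlapped. Without 1 array the adjusted p reached 0.13 for Klhl9 (lost without any control, forskolin replicate 1 or 2, or AICAR replicate 2 or 3), 0.15 for Klhl13 (lost without any array but control replicate 1 and AICAR replicate 1) and 0.11 for Klhl34 (lost without control replicate 2 or 3 or AICAR replicate 2 or 3).

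In all 7 members that rose in either AICAR comparison, AICAR replicate 1 was the lowest of the 3 AICAR arrays. The same held for 43.6% of all genes called higher against forskolin and for 68.6% of those called higher against control. AICAR replicates 2 and 3 are the arrays with the narrower interquartile range, and the part of this in the rises was not tested.

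Kbtbd3 was the remaining called member. It read 6.07, 5.999 and 6.29 in control, 5.85, 5.83 and 5.99 with forskolin, and 5.88, 5.82 and 5.79 with AICAR. All 6 arrays with forskolin were below the control arrays. The fall with forskolin and AICAR was 1.22-fold against control (−0.28, SE 0.07, adjusted p = 0.046), that with forskolin alone did not pass the test (−0.23, adjusted p = 0.41), and adding AICAR to forskolin moved it by −0.06 (adjusted p = 0.64). The call was lost without control replicate 1 or 3, forskolin replicate 1 or 2, or AICAR replicate 2 or 3 (adjusted p up to 0.13).

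**Figure D3:**
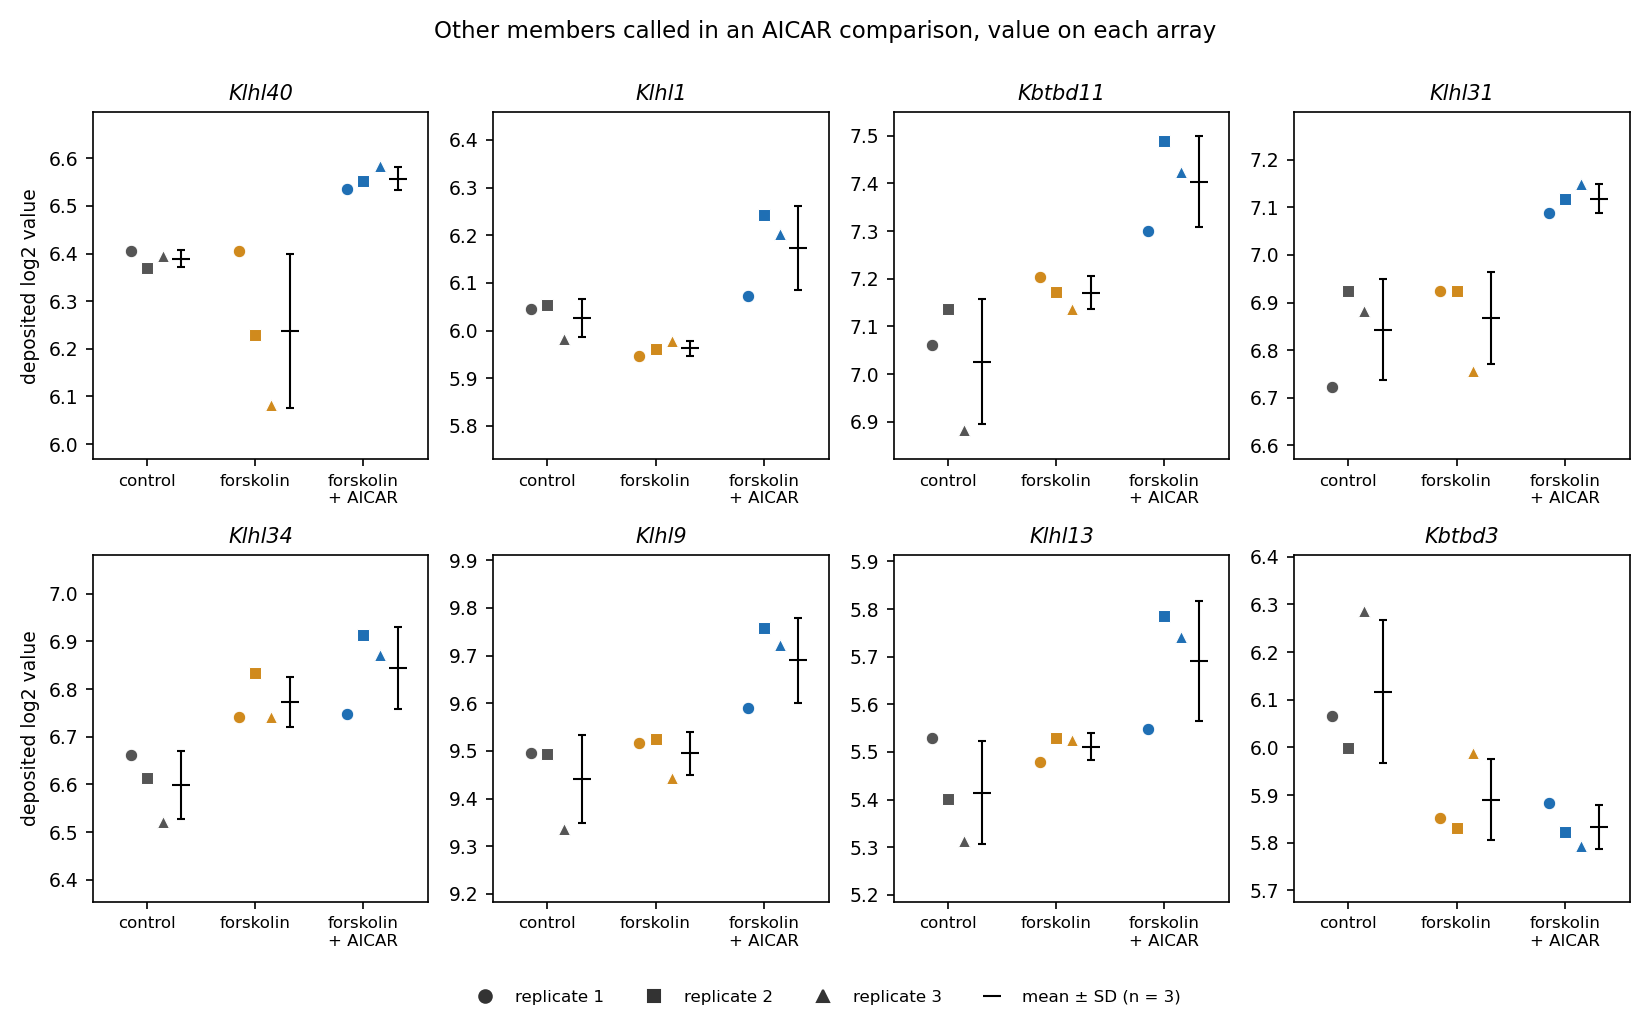
Deposited log2 values (vertical axes, of the same length in all panels and centred on each gene) on each of the 9 arrays for the other 8 members called in an AICAR comparison. Shapes mark replicate numbers and bars the mean and SD of 3 arrays. In the 7 members that rose, AICAR replicate 1 (circle) is the lowest AICAR array, and in Kbtbd3 the forskolin and AICAR arrays are both below control.

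Forskolin alone called 0 of the 55 members with limma, beside 0.692% of all genes (0.497% higher and 0.196% lower). An unadjusted p under 0.05 was reached by 5 of the 55 members and by 1450 of all 19938 genes. A fit with array weights called 1 member, lower, and 2.19% of all genes. The median difference was −0.01 over the 56 members and 0.00 over all genes, and 53 of 56 (94.6%) lay within 0.2, as did 97.5% of all genes. Groups did not overlap in 1 member that was higher (Klhl34, 0.17) and 5 that were lower (Kbtbd3, Klhdc8b, Klhl1, Klhl20 and Klhl23), where all genes gave 6.85% and 7.13%, or 14% in all. Klhdc7a had the lowest value, −0.24 (SE 0.08, adjusted p = 0.42), from 6.83, 6.84 and 6.54 in control and 6.37, 6.55 and 6.55 with forskolin. Its AICAR arrays, at 6.55, 6.52 and 6.57, overlapped the forskolin ones.

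Keap1 did not pass any test. It read 8.93 on all 3 control arrays, 8.86, 8.85 and 8.93 with forskolin, and 8.93, 8.93 and 9.13 with AICAR, where replicate 3 stood apart. The differences were −0.05 for forskolin against control, 0.11 for AICAR against forskolin and 0.07 for AICAR against control (SE 0.06; adjusted p = 0.94, 0.24 and 0.43). Nfe2l2, which encodes the NRF2 protein that KEAP1 holds down, differed by 0.01, −0.12 and −0.11 (SE 0.04; adjusted p = 1, 0.14 and 0.12).

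Genes that NRF2 activates were measured for 27 of 28 listed. With AICAR against forskolin 5 fell and 22 did not pass: Srxn1, which repairs oxidised peroxiredoxins (−0.80, adjusted p = 0.00056), Osgin1 (−0.57, adjusted p = 0.0035), the cystine transporter gene Slc7a11 (−0.53, adjusted p = 0.014), the carbonyl reductase gene Cbr3 (−0.38, adjusted p = 0.025), and Gclc, for the first step of glutathione synthesis (−0.34, adjusted p = 0.012). The 5 falls were 18.5% of the list, beside 4.12% of all genes called lower. The list was chosen with earlier results of these data known, so nothing is read from its share. The list's median was −0.10, against 0.02 over all genes. Srxn1 had risen with forskolin (0.45, adjusted p = 0.034), the only call of the list there: it read 10.19, 10.19 and 10.14 in control, 10.57, 10.51 and 10.78 with forskolin, and 9.81, 9.72 and 9.95 with AICAR. That rise lost its call without any 1 control or forskolin array or AICAR replicate 1 (adjusted p up to 0.16). The calls of Slc7a11 and Gclc were lost without forskolin replicate 3 (0.06 and 0.057) and that of Cbr3 without forskolin replicate 1 or 3 or AICAR replicate 2 (up to 0.095). Against control, 5 of the 27 (18.5%, beside 5.68% of all genes) were lower with forskolin and AICAR: Osgin1 (−0.54), Cbr3 (−0.37), Srxn1 (−0.35), Aox1 (−0.31) and Gsta3 (−0.28). The calls of Cbr3 and Srxn1 were lost without any 1 control or without AICAR replicate 2 (adjusted p up to 0.084 and 0.093), and Gsta3 kept its call when forskolin replicate 3 or AICAR replicate 1 was left out and lost it for each of the other 7 arrays (up to 0.14). Nqo1, a much used NRF2 readout, was at −0.23 against forskolin (adjusted p = 0.22), and Hmox1 at 0.01 (adjusted p = 0.96).

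The members not yet given were grouped by what they are known to do, and none of them was called. Among mitotic adaptors, Klhl21, which serves Aurora B, differed by −0.17 between AICAR and forskolin (adjusted p = 0.095), Klhl22, which serves PLK1, by −0.07 (0.42 after adjustment), and Klhl18 by −0.17 (adjusted p = 0.13). Klhl18 read 8.10, 8.03 and 7.93 in control, 8.0, 8.01 and 8.02 with forskolin, and 7.90, 7.73 and 7.90 with AICAR, so every AICAR array was below the others. Muscle adaptors beside Klhl40 and Klhl31 were Klhl41 (0.00) and the nemaline myopathy gene Kbtbd13 (0.11). The adaptors of WNK kinases, known from salt handling in the kidney, were Klhl2 (−0.03) and Klhl3 (0.08). Klhl12, which enlarges COPII vesicle coats for collagen export, was at 0.11, Klhl20, which marks DAPK1 and PML, at 0.00, Klhl15, which marks a regulatory subunit of the phosphatase PP2A, at −0.05, and Kbtbd2, which marks the PI3-kinase subunit encoded by Pik3r1, at −0.02. Klhl10, needed for sperm formation, was at 0.04, and Klhl6, an adaptor of B cells, at 0.05. Klhl24, mutated in a skin fragility disorder, was at 0.12 and Klhl7, mutated in a retinal dystrophy, at −0.03.

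The Klhdc genes other than Klhdc8a included Klhdc2, Klhdc3 and Klhdc10, whose proteins read the C-terminal ends of substrates for CUL2 ligases. They differed by −0.10, 0.03 and 0.01 between AICAR and forskolin. Klhdc1, which reads similar ends, was at −0.32 (SE 0.11, adjusted p = 0.14). Its AICAR arrays were spread, at 7.53, 7.23 and 7.13, over forskolin arrays at 7.46, 7.59 and 7.80 and control arrays at 7.44, 7.50 and 7.67. Klhdc7b had the highest value of the family, 0.33, with the widest error of the class (SE 0.12, adjusted p = 0.16). Klhdc4 (0.06), Klhdc8b (0.11) and Klhdc9 (0.06) complete the class.

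Members for which no role is given here were Kbtbd4, Kbtbd12, Klhl4, Klhl5, Klhl8, Klhl11, Klhl14, Klhl23, Klhl25, Klhl26, Klhl28, Klhl29, Klhl30, Klhl32, Klhl33, Klhl35, Klhl36, Klhl38 and Klhl42. Klhl30 came closest to a call against control (0.25, SE 0.07, adjusted p = 0.054), from 6.20, 6.14 and 5.98 in control and 6.20, 6.20 and 5.997 with forskolin to 6.34, 6.34 and 6.40 with AICAR. Klhl35 read 7.56, 7.50 and 7.35, then 7.54, 7.56 and 7.49, then 7.59, 7.71 and 7.68 (0.19 against control, adjusted p = 0.073). Klhl38 read 6.17, 6.09 and 5.93, then 5.98, 6.13 and 5.98, then 6.13, 6.35 and 6.20 (0.16 against control, adjusted p = 0.19). In Klhl30 and Klhl35 the AICAR arrays were above all others, and in Klhl38 they overlapped both groups. Over the 37 members with no array values above, differences ran from −0.17 (Klhl23) to 0.11 (Klhdc9) for forskolin against control, from −0.17 (Klhl21) to 0.33 (Klhdc7b) for AICAR against forskolin, and from −0.16 (Klhl26) to 0.21 (Klhdc7b) for AICAR against control. Mean values under a log2 of 6, where a probe may measure little, were found for 7 members: Kbtbd3, Klhdc7b, Klhdc9, Klhl13, Klhl33, Klhl4 and Klhl6.

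Of the ligase that these adaptors serve, 2 and 3 genes fell with AICAR. Of 26 genes of the CUL3 core and the NEDD8 cycle, 0 were called with forskolin (smallest p Dcun1d2, −0.13, adjusted p = 0.45; 3 at an unadjusted p under 0.05). With AICAR against forskolin 2 fell (7.69%, beside 5.1% of all genes): Senp8, a protease that takes NEDD8 off proteins (−0.45, SE 0.09, adjusted p = 0.028), and Dcun1d3, which helps attach it to cullins (−0.21, SE 0.05, adjusted p = 0.047). Senp8 read 6.72, 6.62 and 6.92 in control, 6.57, 6.62 and 6.84 with forskolin, and 6.31, 6.27 and 6.10 with AICAR. Against control 3 fell (11.5%, beside 8.72%): Senp8 (−0.52, SE 0.09, adjusted p = 0.012), Dcun1d3 (−0.24, SE 0.05, adjusted p = 0.019) and Dcun1d2, a relative of Dcun1d3 (−0.24, SE 0.04, adjusted p = 0.012). The Senp8 fall against forskolin lost its call without control replicate 1, forskolin replicate 2 or 3 or AICAR replicate 2 or 3 (adjusted p up to 0.099), and that of Dcun1d3 without any 1 array but AICAR replicate 1 (up to 0.13), with quantile normalization and with median centring. Against control, Dcun1d2 lost its call without control replicate 3 (0.055) and Dcun1d3 without control replicate 2 or 3 or AICAR replicate 2 (up to 0.076). Cul3, Rbx1 and Nedd8 themselves were at −0.06, 0.00 and −0.03 with AICAR against forskolin (adjusted p = 0.36, 0.99 and 0.67). The list's median was −0.05, against 0.02 over all genes. Of 13 genes of the CUL2 ligases, 0 were called by limma in any comparison, with 0, 5 and 2 at an unadjusted p under 0.05. All genes gave 1450, 4801 and 6199 of 19938 at that level. The smallest p was that of Fem1c with forskolin (0.08) and of Zer1 in both AICAR comparisons (−0.14 and −0.15, adjusted p = 0.11 and 0.066).

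**Figure D4:**
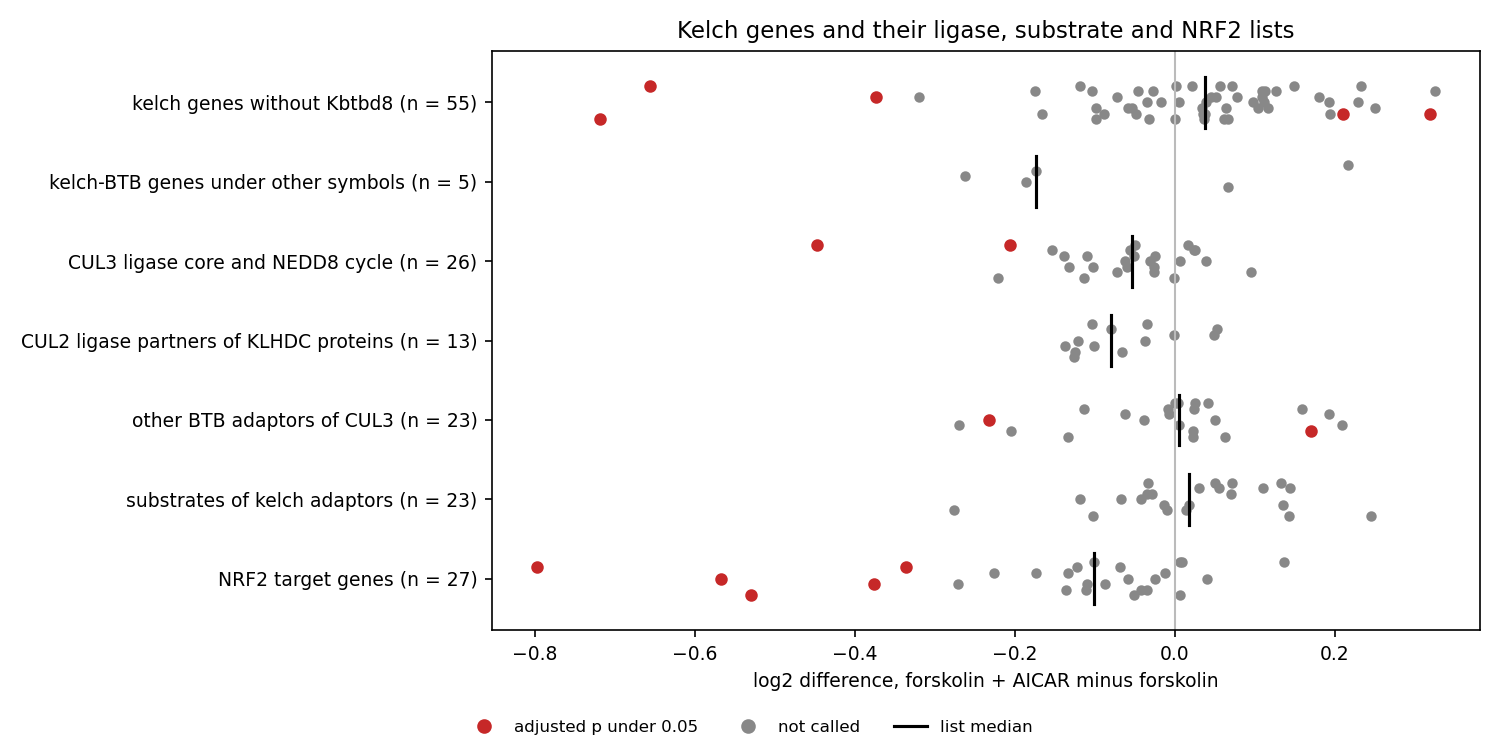
Log2 differences of forskolin with AICAR minus forskolin (horizontal axis) for the 55 tested kelch genes and 6 lists of related genes; points are genes, red where the adjusted p was under 0.05, and black bars are list medians. Red points to the left are the falls of Kbtbd6, Kbtbd7, Klhdc8a, Senp8, Dcun1d3, Kctd2 and 5 NRF2 targets.

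Other BTB adaptors of CUL3 were measured for 23 genes. Of them 8.7% were called with AICAR against forskolin and 13% against control, beside 5.1% and 8.72% of all genes. With AICAR against forskolin, Spop, an adaptor mutated in prostate cancer, rose (0.17, SE 0.04, adjusted p = 0.048) and Kctd2 fell (−0.23, SE 0.05, adjusted p = 0.03). Against control Kctd2 (−0.33), Btbd6 (−0.21) and Rhobtb2 (−0.18) were lower. Spop read 10.26, 10.28 and 10.19 in control, 10.06, 10.08 and 10.10 with forskolin, and 10.27, 10.19 and 10.29 with AICAR, so the forskolin arrays were the low ones, yet forskolin against control did not pass (−0.16, adjusted p = 0.20). The Spop call was lost without any 1 array but AICAR replicate 1 (adjusted p up to 0.13), that of Kctd2 against forskolin without any but control replicate 3 and AICAR replicate 1 (up to 0.11) and with median centring, that of Btbd6 against control without any 1 control or forskolin array or AICAR replicate 2 (up to 0.12), and that of Rhobtb2 without any 1 control, forskolin replicate 2, or AICAR replicate 2 or 3 (up to 0.12). With quantile normalization the Btbd6 and Rhobtb2 calls were lost too. Kelch-BTB genes under other symbols (Ipp, Enc1, Ivns1abp, Ccin and Lztr1) gave 0 calls of 5 by limma with forskolin (smallest p Enc1, 0.18, adjusted p = 0.40). For AICAR against forskolin they gave 0 calls of 5 by limma, with 4 at an unadjusted p under 0.05, beside 4801 of all 19938 genes. Ivns1abp, which binds an influenza protein and actin, was at −0.19 there (adjusted p = 0.059) and was called against control (−0.18, SE 0.05, adjusted p = 0.0497). That call was lost without any 1 array but AICAR replicate 1 (up to 0.16) and with the mean of its probes.

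Of 23 genes whose proteins are substrates of kelch adaptors, 0 were called by limma with forskolin (1 at an unadjusted p under 0.05, Plk1, −0.17, adjusted p = 0.28). With AICAR against forskolin limma called 0 as well, with 5 at an unadjusted p under 0.05, beside 4801 of all 19938 genes. Wnk2, a kinase of the WNK group, read 7.24, 7.27 and 7.13 in control, 7.34, 7.34 and 7.15 with forskolin, and 7.47, 7.56 and 7.53 with AICAR. It rose against control (0.30, SE 0.06, adjusted p = 0.018) and missed the threshold against forskolin (0.25, adjusted p = 0.0503). Pik3r1, the target of Kbtbd2, fell against control (−0.32, SE 0.08, adjusted p = 0.049), from 10.92, 10.86 and 10.92 to 10.72, 10.64 and 10.39. The Pik3r1 call was lost without any 1 array but AICAR replicate 1 (adjusted p up to 0.15), and that of Wnk2 without control replicate 3 or AICAR replicate 2 or 3 (up to 0.076). The 2 calls against control were 8.7% of the list, beside 8.72% of all genes. The medians of the list were 0.02 against forskolin and 0.00 against control, where all genes gave 0.02 and 0.02.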

How the data were processed

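Each transcript cluster (a probe here) has a log2 value that the authors made with RMA and Partek and deposited, per the submitters' processing notes. Versions, settings and the genome build are not given in the sources used here. RMA usually corrects background, gives the arrays 1 distribution and takes a median polish. Of 35557 probes, 21789 had 1 gene symbol, 1621 several and 12147 none listed. Single-symbol probes were used, with the highest mean over the 9 arrays where a gene had several (999 genes, 4 of them members), leaving 19938 genes. Entrez identifiers matched RefSeq (GRCm38.p6) for 21698 probes, and 0 symbols changed.

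limma 3.58.1 under R 4.3.3 fitted the 9 arrays jointly, with a mean per group, its moderated two-sided test and Benjamini-Hochberg adjustment over all genes, tested on simulated data. A gene was called at an adjusted p under 0.05. No filter on dim probes was applied. Array values are given for Kbtbd8, Keap1, called members, and the 6 other members with the largest difference among those with a mean of at least 6. Of each of 12 gene lists up to 4 called genes, or the one with the smallest p, are named. Other genes are named to complete counts, as substrates of a described member, or after their values were seen (Gclc, Gsta3, Nqo1, Hmox1, Mtrf1, Naa16, Wbp4 and Elf1). The members and lists were chosen with earlier results of these data known. Promoter windows are RefSeq's. Alternatives were a replicate block, filters at means of 5 and 6, quantile normalization, median centring, a trended robust prior, 2-group fits, array weights, the mean of a gene's probes, a 1.5-fold threshold, and leaving out each array. Figures were drawn with matplotlib 3.10.9, and tables made with numpy 2.4.6, pandas 2.3.3 and Python 3.11.15.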

Additional observations from a re-analysis of the deposited data

How the results depend on the processing

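With array weights, 1 member was called for forskolin against control (lower), 18 for AICAR against forskolin (10 higher, 8 lower) and 26 for AICAR against control (14 higher, 12 lower), against 0, 5 and 9. The same fit called 2.19%, 28.7% and 33.2% of all genes, against 0.692%, 5.1% and 8.72%. Fits of only the 2 groups compared called 3 and 3 members in the AICAR comparisons, all lower, and 2.49% and 3.8% of all genes. A 1.5-fold threshold left 2 and 2 members, Kbtbd6 and Kbtbd7. With the replicate number as a block, 0, 3 and 4 members were called and 83, 583 and 874 of all genes, against 138, 1017 and 1739. Whether the replicate numbers pair the samples is not stated. Same-number correlations of deviations from the group means ran from −0.406 to 0.329, and 0 of 9 arrays correlated best with their own number. With 3 arrays per group this check cannot decide whether the samples are paired. With 1 array left out, calls ran from 3 to 12 for AICAR against forskolin and from 2 to 15 for AICAR against control, and 3324 and 4741 of all genes were called without AICAR replicate 1. The cause of these shifts was not tested. Among 1916 alternatives of 107 tested gene differences, 52 of them called, 1634 kept direction and side of the threshold, 207 lost a call, 66 gained one and 9 changed sign. Of the 52 calls, 21 were lost with the replicate block, 24 in the fits of 2 groups, 5 with quantile normalization and 2 with median centring. Those of Btbd6, Rhobtb2 and Cd68 against control and of Dcun1d3 against forskolin were lost with the block, with 2 groups and with quantile normalization. The sign changes were all in differences that were not called: Kbtbd7 with forskolin (0.0032 without forskolin replicate 1, −0.0584 to 0.0032 with any 1 array left out), Klhl31 with forskolin (−0.0011 with quantile normalization, −0.0053 with median centring, −0.0346 without control replicate 1, −0.0025 without forskolin replicate 1 or 2, up to 0.0809 without replicate 3), Wbp4 with AICAR against forskolin (0.0278 with quantile normalization, 0.0077 without AICAR replicate 3, −0.081 without AICAR replicate 1) and Keap1 with AICAR against control (−0.0009 without AICAR replicate 3, up to 0.0981 without replicate 1). Kbtbd8, which has no test, is not among these counts. Kbtbd3, Klhl13, Kdr, Ptprc and Tek had no value with the filter at 6. No scaling moved the median of all genes by over 0.1.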
